A study of Mus musculus with 36 samples.

Results

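The comparison set 2 sorted populations of leukaemic bone marrow (BM) against each other. The first was the HSC/MPP gate (haematopoietic stem cells and multipotent progenitors, Lin- c-Kit+ Sca-1+ Flt3-, called HSC here). The second was the LK gate (Lin- c-Kit+ Sca-1-, labelled LK/CLP, called LK here). Libraries were chosen by their labels alone, 4 HSC and 4 LK libraries of leukaemia BM, which made 8 of the 36 libraries of the series. Every one of the 8 came from a different mouse. All 8 mice carried Kmt2a-AFF1, which joins a histone methyltransferase to a protein of transcription elongation and drives infant leukaemia, overexpressed miR-130b per the sample labels, and had terminal leukaemia. The design text names miR-130a in place of miR-130b, and the labels give neither the ages of the mice nor how the fusion and the microRNA were delivered. Central nervous system (CNS) cells of the same 8 mice, sorted by the same gates, gave 8 further libraries. Control HSC and LK libraries came from the BM of 4 mice that carried Kmt2a-AFF1 with a scrambled microRNA and had no leukaemia, 1 library of each gate per mouse. RNA of freshly sorted cells was made into total RNA libraries with a kit for very small inputs.

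The microRNA overexpressed in every leukaemia mouse is shown first because its name differs between the sample labels and the design text. The mature 3p sequences of both, from RefSeq (GRCm38.p6), follow 5′ to 3′ with the seed, bases 2 to 8, in capitals.
miR-130b-3p: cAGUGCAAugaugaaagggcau
miR-130a-3p: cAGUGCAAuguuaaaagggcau
miR-130b-3p lies at chr16:17124071-17124092 and miR-130a-3p at chr2:84741116-84741137, both on the minus strand. Both are 22 bases long and share the seed AGUGCAA. They differ at 2 of the 22 bases, U11A and A13G, counted from the 5′ end, with the base of miR-130a first and that of miR-130b second. HSC and LK libraries of the leukaemia arm share this microRNA and the fusion, so the comparison between them is one of sorted cell types within the disease.

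Sca-1, the product of Ly6a, and c-Kit mark the blood-forming stem and multipotent cells at the top of the hierarchy. Their Sca-1-negative, c-Kit-positive neighbours are mostly committed myeloid, erythroid and megakaryocyte progenitors in healthy marrow. In healthy marrow, stem cells divide rarely and make little protein, and progenitors cycle and build ribosomes and granules. Kmt2a fusions keep genes such as Hoxa9 and Meis1 active in leukaemic cells. Gates drawn for healthy marrow sort leukaemic cells by surface protein and not by place in a hierarchy.

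The 4 HSC libraries held 10219026 to 23043885 counts, and the 4 LK libraries 11243907 to 16754870 counts. Olfactory, vomeronasal and other sensory receptor genes, which blood cells are taken not to use, were counted throughout and gave each library's background per kb of exon. Spread evenly over the genome, this background came to 9.13, 8.98, 9.13 and 26.5% of counts in HSC libraries 1 to 4, against 8.49, 8.68, 3.81 and 0.955% in LK libraries 1 to 4. The groups did not overlap (13.4 ± 8.72% in HSC, 5.48 ± 3.77% in LK, SD, n = 4 each, two-sided exact permutation p = 0.0286, the smallest the design allows). HSC library 4 stood apart with the highest background of the 8, and LK library 4 had the lowest. Spearman correlations across the genes tested ran from 0.842 to 0.971 within HSC, from 0.939 to 0.972 within LK and from 0.805 to 0.980 between an HSC and an LK library. The medians were 0.910 within HSC, 0.956 within LK and 0.933 between them. Levels below are CPM, counts per 1000000 counts of the 13490 genes above background, with library totals scaled by the trimmed mean of M values (TMM). In sorted bulk cells, fewer cells of a type and less RNA per cell cannot be told apart.

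The sorting markers came first as a check of the labels. Ly6a (ENSMUSG00000075602) stood at 16.3, 24.2, 42.1 and 15.2 CPM in HSC libraries 1 to 4, against 4.40, 3.24, 3.25 and 0.404 CPM in LK libraries 1 to 4. All 4 HSC libraries exceeded all 4 LK libraries, with an expected background of 1.66 CPM in HSC and 0.611 CPM in LK libraries, and the log2 fold change of HSC minus LK was 3.09 ± 0.53 (SE). Kit, on which both gates select, averaged 209 ± 87.5 CPM in HSC and 221 ± 18.1 CPM in LK libraries (SD, n = 4 each), and HSC library 4 was the lowest of the 8 at 83.3 CPM.

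Flt3, the receptor by which the HSC gate excludes cells and on which the LK gate does not select, stood at 129, 38.7, 108 and 50.6 CPM in HSC libraries 1 to 4, against 454, 128, 293 and 373 CPM in LK libraries 1 to 4. HSC library 1 lay just above LK library 2, so the groups overlapped at that point, and the log2 fold change was -1.93 ± 0.47 (edgeR adjusted p = 0.154). Cd34, a progenitor surface glycoprotein, and Cd48, a SLAM-family receptor, averaged 153 ± 32.1 CPM in HSC and 165 ± 33.9 CPM in LK libraries (SD, n = 4 each) for Cd34 and 67.6 ± 18.3 CPM in HSC and 75.6 ± 11.3 CPM in LK libraries (SD, n = 4 each) for Cd48, with groups that overlapped in both. Slamf1, which encodes the stem cell marker CD150, and Il7r, the interleukin-7 receptor of lymphoid progenitors, did not pass the filter against background. Slamf1 had 156, 93, 168 and 153 counts in HSC libraries 1 to 4, against 79, 45, 31 and 7 counts in LK libraries 1 to 4. Il7r had 61, 59, 29 and 124 counts in HSC libraries, against 57, 42, 19 and 11 counts in LK libraries.

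**Figure D1:**
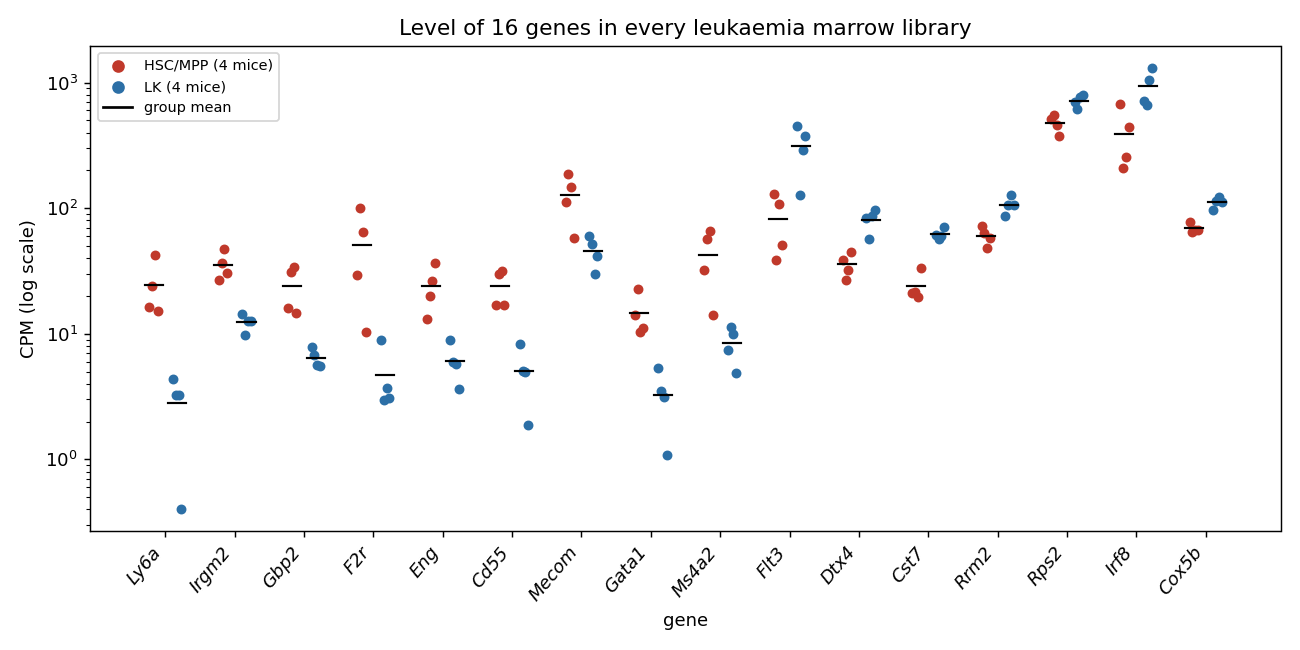
Levels of 16 genes in each leukaemia marrow library, in CPM on a log axis, with HSC/MPP libraries left of LK libraries for each gene and a bar at each group mean. Ly6a separated the gates in all 8 libraries, and the 2 gates touched at Flt3, where HSC library 1 reached 129 CPM and LK library 2 stood at 128 CPM.

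No gene passed the threshold between the gates in edgeR, and several gene lists had nearly all fold changes on one side of 0. Among single genes of small p, Irgm2, Gbp2, Rec8, F2r and Auts2 stood on the higher side in HSC, and Dtx4, Pgls, Cox5b, Arpc4 and Hes6 on the lower side. edgeR's quasi-likelihood test called 0 of 13490 genes (0%) at an adjusted p under 0.05, and 2486 genes (18.4%) had an unadjusted p under 0.05, 1371 higher and 1115 lower in HSC. DESeq2 on the same libraries called 399 genes (2.96%), 249 higher (1.85%) and 150 lower (1.11%), or 132 (0.979%) with background subtracted. limma-voom with sample weights called 117 (0.867%) and limma-trend called 0. In 631 genes (4.68%) all 4 HSC libraries lay above all 4 LK libraries, and in 788 genes (5.84%) all lay below. Libraries of a gate came from different mice, so p-values here measure the spread between mice as well as between preparations.

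The count of calls depended on single libraries. Without HSC library 4 edgeR called 14 genes, 13 of them higher in HSC, among them F2r, Irgm2, Gbp2, Rec8 and Ly6a, and Dtx4 as the lower one. Without HSC library 1 it called 7, all higher, and without LK library 1 it called only Sept8. Leaving out any of the other 5 libraries left 0 calls.

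Irgm2 (ENSMUSG00000069874), a member of the immunity-related GTPases that interferon-gamma switches on against intracellular microbes, had the smallest p. It stood at 26.6, 36.5, 47.5 and 30.3 CPM in HSC libraries 1 to 4, against 14.4, 9.72, 12.8 and 12.7 CPM in LK libraries 1 to 4. The lowest HSC library was well above the highest LK library, and the means were 35.2 ± 9.18 CPM in HSC and 12.4 ± 1.95 CPM in LK libraries (SD, n = 4 each). The log2 fold change was 1.50 ± 0.21 with an edgeR adjusted p of 0.0541, just short of the threshold, and 1.52 ± 0.23 with a DESeq2 adjusted p of 2.74e-07.

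Gbp2, a guanylate-binding protein gene of the same interferon response, had 16.2, 31.2, 33.8 and 14.7 CPM in HSC libraries 1 to 4, against 7.84, 6.76, 5.60 and 5.53 CPM in LK libraries 1 to 4 (log2 fold change 1.89 ± 0.31, edgeR adjusted p = 0.0744). Rec8, known as the meiotic subunit of cohesin, had 30.5, 86.9, 94.5 and 30.1 CPM in HSC libraries 1 to 4, against 17.4, 6.90, 9.96 and 8.90 CPM in LK libraries 1 to 4 (log2 fold change 2.48 ± 0.42). For both genes HSC libraries 2 and 3 exceeded HSC libraries 1 and 4, and neither gene overlapped between gates.

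F2r, which encodes a receptor for thrombin, varied widely among HSC libraries. It stood at 29.3, 100.3, 64.4 and 10.2 CPM in HSC libraries 1 to 4, against 8.92, 2.96, 3.69 and 3.10 CPM in LK libraries 1 to 4. HSC library 4 lay close to LK library 1, and HSC library 2 was far above both, with a log2 fold change of 3.43 ± 0.58 (edgeR adjusted p = 0.0744). Background would bring 4.61 CPM in HSC and 1.69 CPM in LK libraries on average, and it was highest per kb in HSC library 4. With background subtracted the log2 fold change of F2r was 4.02 ± 1.01. Auts2, a gene known from neurodevelopment, had 39.4, 79.7, 83.4 and 82.7 CPM in HSC libraries 1 to 4, against 28.6, 22.3, 18.8 and 12.3 CPM in LK libraries 1 to 4 (log2 fold change 1.80 ± 0.30), of which background would bring 31.6 CPM in HSC and 11.6 CPM in LK libraries because its exons are long. These are group means, and more of the Auts2 level in HSC library 4 would be background. With background subtracted the log2 fold change of Auts2 was 2.31 ± 0.49.

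The 5 genes of smallest p in the other direction had smaller folds. Dtx4, an E3 ubiquitin ligase gene of the Deltex family, had 39.0, 26.6, 31.99 and 45.1 CPM in HSC libraries 1 to 4, against 82.8, 57.0, 87.3 and 96.4 CPM in LK libraries 1 to 4 (log2 fold change -1.18 ± 0.19, edgeR adjusted p = 0.0744). Pgls, an enzyme gene of the pentose phosphate pathway, averaged 49.5 ± 5.53 CPM in HSC and 89.9 ± 15.3 CPM in LK libraries (SD, n = 4 each), a log2 fold change of -0.86 ± 0.16. Cox5b, a subunit gene of cytochrome c oxidase, averaged 69.0 ± 5.91 CPM in HSC and 111 ± 10.0 CPM in LK libraries (SD, n = 4 each), a log2 fold change of -0.69 ± 0.13. Arpc4, a subunit gene of the actin-nucleating Arp2/3 complex, had a log2 fold change of -0.76 ± 0.16, and Hes6, a helix-loop-helix repressor gene, one of -0.76 ± 0.16. In each of the 5 genes every HSC library was below every LK library.

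**Figure D2:**
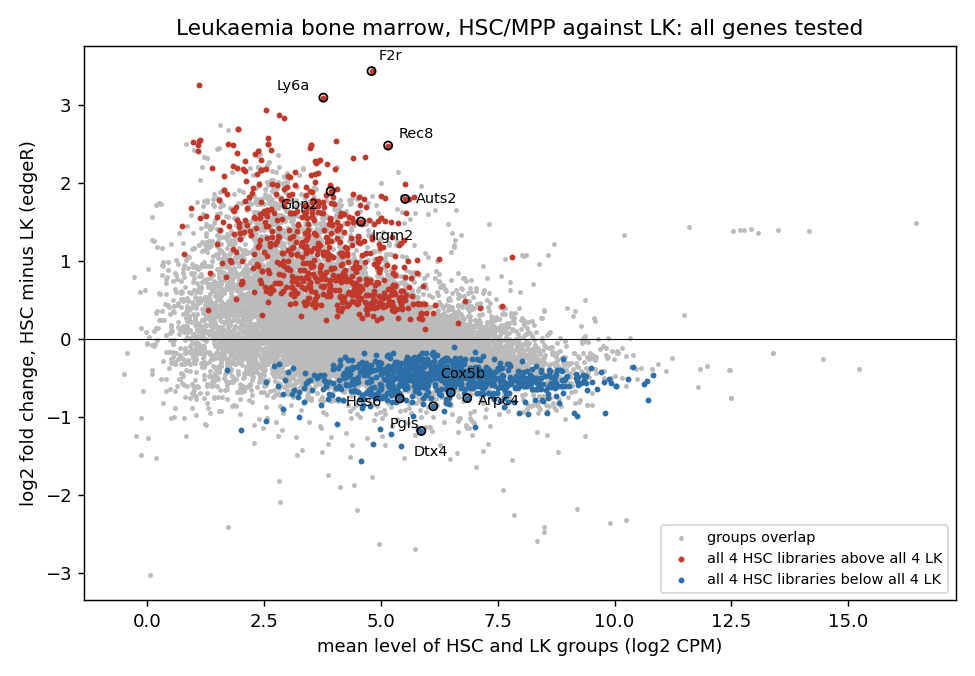
Log2 fold change of HSC minus LK (edgeR, vertical axis) against the mean level of both gates in log2 CPM (horizontal axis) for the 13490 genes tested, 1 point a gene. Red points are the 631 genes whose HSC libraries all exceeded the LK libraries, blue points the 788 genes whose HSC libraries all lay below, and circles mark the genes of smallest p in each direction and Ly6a.

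Interferon-induced genes had fold changes above 0 with few exceptions. Of 30 type I interferon response genes 29 passed the filter, and 28 of the 29 had a fold change above 0, with a median of 0.93 against 0.02 over all genes tested. In that direction 15 had an unadjusted p under 0.05 (10.2% of all genes did) and 8 did not overlap between gates (4.68% of all genes), with none in the other direction by either count. DESeq2 called 5 of them higher (1.85% of all genes). The summed level of the list was 957, 898, 946 and 1152 CPM in HSC libraries 1 to 4, against 587, 909, 496 and 415 CPM in LK libraries 1 to 4. LK library 2 reached the level of the HSC libraries, and the other 3 LK libraries lay well below. Background for the list would bring 180 CPM in HSC and 66.1 CPM in LK libraries as group means. It was highest per kb in HSC library 4, which makes the sum of that library the least certain.

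Within the list, Parp14, an ADP-ribosyltransferase gene, stood at 91.3, 101, 136 and 78.0 CPM in HSC libraries 1 to 4, against 55.9, 58.3, 40.1 and 45.6 CPM in LK libraries 1 to 4, with no overlap and a log2 fold change of 1.02 ± 0.18. Zbp1, a sensor of Z-form nucleic acid, had 26.1, 21.4, 37.3 and 48.8 CPM in HSC libraries 1 to 4, against 7.09, 20.4, 5.26 and 4.18 CPM in LK libraries 1 to 4 (log2 fold change 1.86 ± 0.46). Oasl1, a 2′-5′ oligoadenylate synthetase-like gene, had a log2 fold change of 1.42 ± 0.41. LK library 2 was the highest LK library for Parp14 and for Zbp1, where it lay just under HSC library 2.

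The interferon-induced GTPases were set apart as a family after their values had been seen. The family comprises guanylate-binding proteins, which coat bacteria and vacuoles, and immunity-related GTPases, which attack or guard vacuole membranes. Of 19 family genes 16 passed the filter and all 16 had a fold change above 0 (median 1.09, 1.15 after background was subtracted). Of these, 13 had an unadjusted p under 0.05 (10.2% of all genes in that direction), 6 did not overlap between gates (4.68% of all genes) and DESeq2 called 9 (1.85% of all genes). Their summed level was 914, 1151, 1534 and 777 CPM in HSC libraries 1 to 4, against 572, 715, 403 and 409 CPM in LK libraries 1 to 4, with no overlap before background was subtracted. Background for the list would bring 121 CPM in HSC and 44.5 CPM in LK libraries as group means. It was highest per kb in HSC library 4, so the absence of overlap is uncertain there. Reads of near-identical members such as Tgtp1 and Tgtp2 may have been split between them, so in that respect single members are less certain than the sum.

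Tgtp1, an immunity-related GTPase gene, stood at 65.5, 112, 111 and 37.4 CPM in HSC libraries 1 to 4, against 30.4, 34.5, 13.3 and 14.6 CPM in LK libraries 1 to 4, a log2 fold change of 1.82 ± 0.36. Tgtp2 had 1.66 ± 0.41, Iigp1 2.32 ± 0.64, Gbp5 1.48 ± 0.26, Gvin1 1.07 ± 0.30 and Irgm1 0.66 ± 0.16 as log2 fold changes. Gbp5 and Irgm1 were tight within gates, with Irgm1 at 60.9, 63.0, 62.4 and 53.4 CPM in HSC libraries and 40.1, 48.7, 33.6 and 29.1 CPM in LK libraries. Iigp1 was spread, with 17.5 CPM in LK library 2 and 2.02 to 6.55 CPM in the other LK libraries.

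Promoters of 3 family members with small p are shown because all tested genes of the family had fold changes of one sign. Each window runs from 250 bases before to 50 bases after the RefSeq gene start (GRCm38.p6), 5′ to 3′ along the gene. Capitals mark matches, on either strand, to the interferon-stimulated response element core GAAANNGAAA or to the gamma-activated site TTCNNNGAA.
Irgm2 (chr11:58214727-58215026, plus strand): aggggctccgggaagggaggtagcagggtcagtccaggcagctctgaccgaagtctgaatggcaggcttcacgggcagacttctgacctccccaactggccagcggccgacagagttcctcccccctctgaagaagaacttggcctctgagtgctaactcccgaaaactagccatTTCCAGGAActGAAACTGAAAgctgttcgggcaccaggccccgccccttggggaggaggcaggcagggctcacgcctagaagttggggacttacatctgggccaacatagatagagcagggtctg
Gbp2 (chr3:142620413-142620712, plus strand): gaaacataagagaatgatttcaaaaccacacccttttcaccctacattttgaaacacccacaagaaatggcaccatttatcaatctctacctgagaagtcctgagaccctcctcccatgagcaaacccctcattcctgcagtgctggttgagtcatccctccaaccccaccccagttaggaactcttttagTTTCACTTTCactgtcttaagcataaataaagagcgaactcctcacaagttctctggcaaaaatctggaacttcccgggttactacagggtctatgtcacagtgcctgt
Gbp5 (chr3:142496684-142496983, plus strand): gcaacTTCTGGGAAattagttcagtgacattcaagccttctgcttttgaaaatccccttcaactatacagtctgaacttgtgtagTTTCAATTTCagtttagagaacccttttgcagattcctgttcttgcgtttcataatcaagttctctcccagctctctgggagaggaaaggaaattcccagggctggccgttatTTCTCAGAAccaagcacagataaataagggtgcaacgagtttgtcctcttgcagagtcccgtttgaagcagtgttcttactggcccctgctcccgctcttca
In Irgm2 the gamma-activated site began at -75 and the response element at -64 from the gene start. The Gbp2 window held a response element at -59 and no gamma-activated site. In Gbp5 the response element began at -165, with gamma-activated sites at -245 and -52. RefSeq windows were found for 12 of the 19 family genes, and 10 of the 12 held a response element and 6 a gamma-activated site. Over all 27025 genes with a window the shares were 3.993% and 9.554%. A match describes these letters and no binding was measured.

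Few genes of stem cell identity lay above background. Of 28 listed genes 8 passed the filter, 7 with a fold change above 0 (median 0.84), 5 of them with an unadjusted p under 0.05 (10.2% of all genes in that direction). With 1 of the 8 free of overlap, against 4.68% of all genes, the count was near the background. Their summed level over all 28 was 694, 1269.7, 1191 and 714 CPM in HSC libraries 1 to 4, against 609.8, 483, 372 and 408 CPM in LK libraries 1 to 4. Before background was subtracted, libraries 2 and 3 of HSC stood above libraries 1 and 4, and HSC library 1 was closest to LK. Background for the list would bring 211 CPM in HSC and 77.4 CPM in LK libraries as group means. It was highest per kb in HSC library 4, so the place of that library above LK is uncertain.

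Mecom, a zinc-finger regulator required by stem cells and a target of Kmt2a fusions, had 113, 189, 149 and 57.9 CPM in HSC libraries 1 to 4, against 60.3, 52.2, 29.7 and 41.4 CPM in LK libraries 1 to 4. HSC library 4 lay below LK library 1, and the log2 fold change was 1.47 ± 0.34 (DESeq2 adjusted p = 0.00377). Meis1, the homeobox partner of HOXA proteins, had 38.7, 54.8, 37.6 and 29.9 CPM in HSC libraries 1 to 4, against 29.1, 9.15, 13.5 and 12.9 CPM in LK libraries 1 to 4, with no overlap and a log2 fold change of 1.31 ± 0.34, where background would bring 14.5 CPM in HSC and 5.34 CPM in LK libraries. These are group means, and HSC library 4 had 17.9 background counts per kb, against 6.38 to 11.6 in the other HSC libraries. For Meis1 the absence of overlap is therefore uncertain in HSC library 4. With background subtracted its log2 fold change was 1.35 ± 0.95 (edgeR unadjusted p = 0.177). Gata2, a zinc-finger factor of stem and mast cells, had 125, 384, 382 and 41.2 CPM in HSC libraries 1 to 4, against 99.7, 73.8, 74.7 and 88.7 CPM in LK libraries 1 to 4. It was highest in HSC libraries 2 and 3 and lower in HSC library 4 than in any LK library (log2 fold change 1.47 ± 0.48). The 21 tested genes of the list of Hoxa, Meis1 and other fusion targets split into 11 above and 10 below 0 with a median of 0.01.

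Among genes chosen after their values were seen, a pair of surface protein genes had small p in the same direction. Eng, which encodes the TGF-beta co-receptor endoglin of stem and endothelial cells, stood at 13.01, 20.1, 26.4 and 36.5 CPM in HSC libraries 1 to 4, against 8.92, 5.91, 5.71 and 3.64 CPM in LK libraries 1 to 4 (log2 fold change 1.98 ± 0.36). Cd55, a complement regulator, stood at 17.1, 30.0, 31.8 and 16.9 CPM in HSC libraries 1 to 4, against 8.27, 5.07, 4.93 and 1.89 CPM in LK libraries 1 to 4 (log2 fold change 2.24 ± 0.42). Neither overlapped between gates, and background would bring 5.59 CPM in HSC and 2.05 CPM in LK libraries for Eng and 6.70 CPM in HSC and 2.46 CPM in LK libraries for Cd55. These are group means, and background per kb was highest in HSC library 4. With background subtracted the log2 fold changes were 2.47 ± 0.45 for Eng and 2.83 ± 0.64 for Cd55. DESeq2 called both, with adjusted p of 0.000117 for Eng and 8.51e-05 for Cd55.

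Most tested mast cell and basophil genes, and Gata1 among erythroid genes, had fold changes above 0 in leukaemia. The mast cell sum exceeded LK in HSC libraries 2 and 3 only. Gata1, the master regulator of red cells, platelets and mast cells, had 14.2, 22.9, 10.4 and 11.1 CPM in HSC libraries 1 to 4, against 5.37, 3.52, 3.13 and 1.08 CPM in LK libraries 1 to 4, with no overlap and a log2 fold change of 2.15 ± 0.55. Zfpm1, which encodes the GATA1 cofactor FOG1, had 67.7, 174, 115 and 29.6 CPM in HSC libraries 1 to 4, against 48.5, 31.7, 29.6 and 17.8 CPM in LK libraries 1 to 4 (log2 fold change 1.60 ± 0.41). HSC library 4 stood at the level of LK library 3 for Zfpm1, and HSC library 2 was the highest for both genes.

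Ms4a2, the beta chain of the IgE receptor of mast cells and basophils, had 32.2, 56.7, 65.7 and 14.2 CPM in HSC libraries 1 to 4, against 7.41, 11.4, 9.96 and 4.85 CPM in LK libraries 1 to 4 (log2 fold change 2.33 ± 0.68). Cyp11a1, a steroid-synthesis gene that mast cells and basophils express, had a log2 fold change of 1.81 ± 0.70 with a background of 6.63 CPM in HSC and 2.44 CPM in LK libraries. Of 19 mast cell, basophil and eosinophil genes 8 passed the filter, 6 of them above 0 (median 1.14) with 4 at an unadjusted p under 0.05 (10.2% of all genes) and 2 without overlap (4.68% of all genes). The list summed to 339, 778, 782 and 335 CPM in HSC libraries 1 to 4, against 290.1, 343, 229.7 and 202 CPM in LK libraries 1 to 4. HSC libraries 2 and 3 carried the excess, and HSC libraries 1 and 4 lay within the range of LK.

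Of 22 erythroid genes 10 passed the filter, 8 above 0 (median 1.07), but only Gata1 had an unadjusted p under 0.05 upwards, near the 10.2% of all genes, and 2 genes had one downwards (8.27% of all genes). The list summed to 516, 658, 706 and 591 CPM in HSC libraries 1 to 4, against 659.7, 304, 382 and 326 CPM in LK libraries 1 to 4. LK library 1 lay within the range of HSC, so the sums overlapped. Tfrc, the transferrin receptor gene by which dividing and haemoglobin-making cells take up iron, lay the other way at 103, 84.7, 113 and 45.3 CPM in HSC libraries 1 to 4, against 119.6, 138, 117 and 166 CPM in LK libraries 1 to 4 (log2 fold change -0.64 ± 0.23). Mt1, a metallothionein gene, also lay the other way with -0.85 ± 0.34, and neither gene overlapped. Megakaryocyte genes split, 5 of 9 tested above 0 (median 0.30), led by Gp1ba, a subunit gene of the platelet von Willebrand factor receptor, at 9.28, 13.6, 16.7 and 23.8 CPM in HSC and 6.55, 6.62, 4.14 and 4.31 CPM in LK libraries. Itga2b, the integrin gene of platelets and their progenitors, averaged 32.8 ± 12.03 CPM in HSC and 18.7 ± 7.80 CPM in LK libraries (SD, n = 4 each) and overlapped.

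Genes of division lay lower in HSC, by small folds. All 37 tested cell cycle genes had a fold change below 0 (51.5% of all genes lay above 0), with a median of -0.45. Of these, 18 had an unadjusted p under 0.05 (8.27% of all genes in that direction) and 8 did not overlap (5.84% of all genes). Rrm2, the regulated subunit gene of ribonucleotide reductase, stood at 72.3, 63.8, 47.8 and 57.5 CPM in HSC libraries 1 to 4, against 86.6, 106, 128 and 106 CPM in LK libraries 1 to 4, a log2 fold change of -0.82 ± 0.21. Mcm5, part of the replicative helicase, had -0.62 ± 0.17, and Rrm1, the other reductase subunit gene, -0.58 ± 0.19.

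The list summed to 5415, 4638, 4143 and 3432 CPM in HSC libraries 1 to 4, against 5399, 6400.5, 6489 and 6446 CPM in LK libraries 1 to 4. LK library 1 lay just below HSC library 1 and apart from the other 3 LK libraries, and HSC library 4, the library of highest background, was the lowest. After background was subtracted the median was -0.36. Replication-dependent histone genes, whose messages lack poly(A) tails and accumulate in S phase, were below 0 in 57 of 59 tested, with a median of -0.86 and 54 at an unadjusted p under 0.05 (8.27% of all genes). Their sum was 11829.6, 12516, 8685 and 14576 CPM in HSC libraries 1 to 4, against 12705, 20336, 27952 and 25653 CPM in LK libraries 1 to 4. LK library 1 lay below HSC library 4, so these sums overlapped, and reads of near-identical histone genes may have been shared between members. Quiescence and cell cycle inhibitor genes were split, 9 above and 8 below 0.

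Genes that build ribosomes and mitochondrial respiration followed the same direction. Of 82 tested cytosolic ribosomal protein genes 80 were below 0 (median -0.51), 46 with an unadjusted p under 0.05 (8.27% of all genes in that direction) and 45 without overlap (5.84% of all genes). Rps2, of the small subunit, stood at 514, 549, 456 and 378 CPM in HSC libraries 1 to 4, against 696, 613, 766 and 790.1 CPM in LK libraries 1 to 4 (log2 fold change -0.60 ± 0.18), and Rpl29, of the large subunit, had -0.61 ± 0.17. The list summed to 31024, 30339.5, 31855 and 17507 CPM in HSC libraries 1 to 4, against 40530.5, 34832, 39882 and 42648 CPM in LK libraries 1 to 4, with no overlap. HSC library 4 was far below the other 3 HSC libraries, and those 3 were themselves below every LK library. Ribosome biogenesis genes had 19 of 22 below 0 (median -0.31) and none at an unadjusted p under 0.05 (8.27% of all genes in that direction).

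Nuclear genes of oxidative phosphorylation had 74 of 79 below 0 (median -0.43), 41 at an unadjusted p under 0.05 downwards (8.27% of all genes) and 38 without overlap (5.84% of all genes). Their sums of 3868, 3529.8, 3387 and 3066 CPM in HSC libraries 1 to 4, against 4524, 4409.7, 4869 and 4914 CPM in LK libraries 1 to 4, did not overlap. Atp5g3, a subunit gene of the ATP synthase ring, averaged 43.3 ± 5.44 CPM in HSC and 65.8 ± 7.00 CPM in LK libraries (SD, n = 4 each). Glycolysis and hypoxia genes were less uniform, 15 of 24 below 0 (median -0.18), but the glycolytic enzyme genes Gpi1 (-0.70 ± 0.20), Tpi1 (-0.55 ± 0.16) and Pgam1 (-0.87 ± 0.32, log2 fold changes) did not overlap. Background would bring 242 CPM of the ribosomal protein sum in HSC and 88.8 CPM in LK libraries. With background subtracted the medians were -0.35 for ribosomal proteins, -0.30 for oxidative phosphorylation and -0.58 for histones. Background moved with the gate, and its part in these differences beyond that subtraction was not tested.

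**Figure D3:**
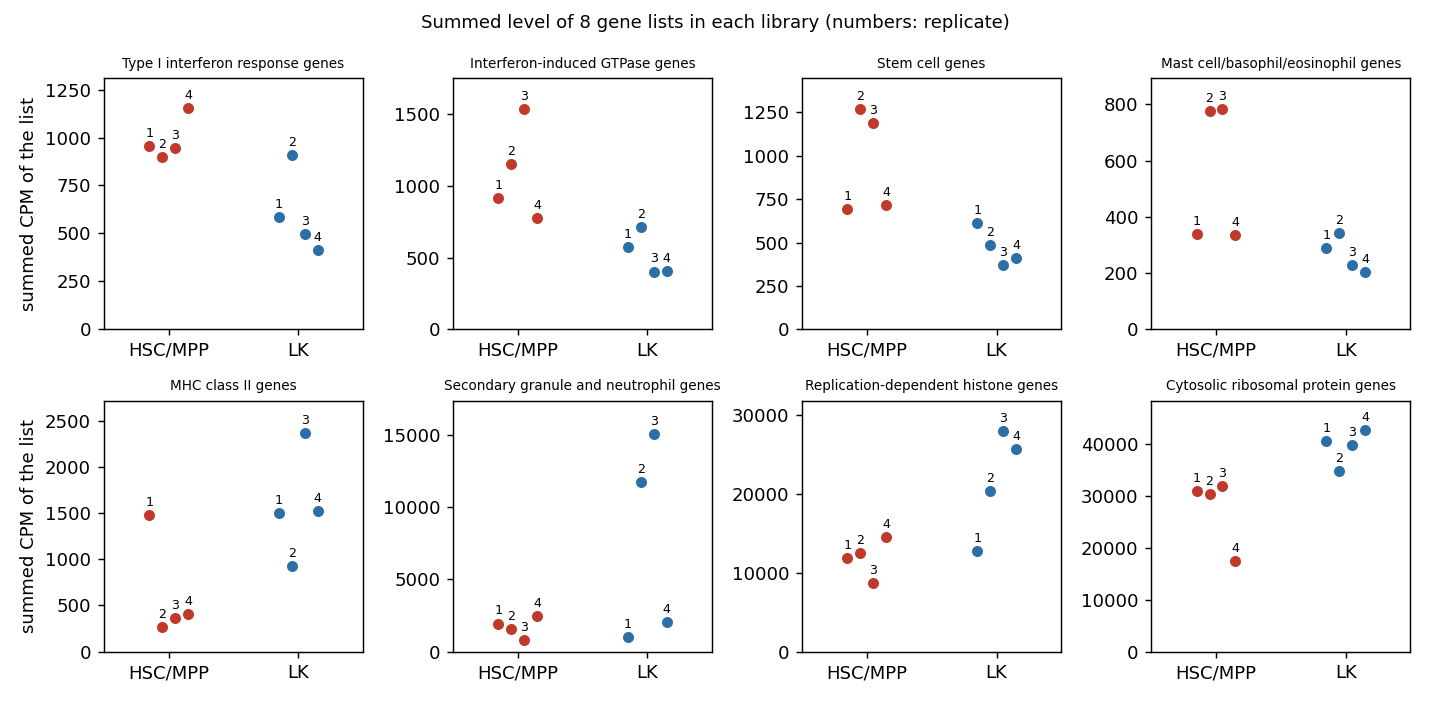
Summed CPM of 8 gene lists in each leukaemia marrow library, HSC/MPP left and LK right, with the replicate number above each point. Before background was subtracted, interferon-induced GTPase and ribosomal protein sums separated the gates, and the neutrophil sum was high in LK libraries 2 and 3 alone.

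Primary granule genes, which granulocyte and monocyte progenitors switch on, were below 0 in 12 of 15 (median -0.41). Of these, 2 had an unadjusted p under 0.05 (8.27% of all genes in that direction), 4 did not overlap (5.84% of all genes) and DESeq2 called 2 lower (1.11% of all genes). Cst7, the cystatin F gene, stood at 21.2, 21.4, 19.7 and 33.6 CPM in HSC libraries 1 to 4, against 61.1, 57.2, 59.7 and 70.4 CPM in LK libraries 1 to 4 (log2 fold change -1.38 ± 0.31), without overlap. Plac8, a gene of myeloid progenitors, had 375, 284, 343 and 278 CPM in HSC libraries 1 to 4, against 459, 581, 438 and 657 CPM in LK libraries 1 to 4 (log2 fold change -0.74 ± 0.21). Clec12a, an inhibitory lectin receptor gene of myeloid cells, overlapped at 182, 122, 203 and 145 CPM in HSC and 188, 198, 231 and 208 CPM in LK libraries.

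Genes of mature neutrophils rested on 2 LK libraries. The list summed to 1945, 1573, 807 and 2485 CPM in HSC libraries 1 to 4, against 981, 11703, 15045 and 2071 CPM in LK libraries 1 to 4, so LK library 1 was below 3 of the HSC libraries and LK libraries 2 and 3 were far above all. Chil3, a chitinase-like gene of neutrophils, had 130.3, 70.0, 45.0 and 124 CPM in HSC libraries 1 to 4, against 86.5, 544, 1454 and 137 CPM in LK libraries 1 to 4 (log2 fold change -2.59 ± 1.35). Anxa1 had -1.35 ± 0.58 and Wfdc21 -2.19 ± 1.13 as log2 fold changes, and none of the 3 separated the gates. The list's median was -1.53 over 18 tested genes, 1 of them at an unadjusted p under 0.05 (8.27% of all genes in that direction). Monocyte genes had 11 of 13 below 0 (median -0.37), and their sums of 915 to 3575 CPM in HSC and 1660.1 to 3897 CPM in LK libraries overlapped.

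Antigen presentation genes lay lower in 3 of the 4 HSC libraries. MHC class II genes had 9 of 10 below 0 (median -0.90), with sums of 1477, 264, 367 and 406 CPM in HSC libraries 1 to 4, against 1502, 930.2, 2363 and 1526 CPM in LK libraries 1 to 4. HSC library 1 was at the level of the LK libraries. H2-DMa, which loads peptides onto class II molecules, had 50.5, 22.1, 22.0 and 44.3 CPM in HSC libraries 1 to 4, against 55.1, 76.9, 71.0 and 73.5 CPM in LK libraries 1 to 4 (log2 fold change -0.99 ± 0.36), and was the single member without overlap. H2-Ab1, the beta chain gene, had 303, 34.0, 56.0 and 58.7 CPM in HSC libraries 1 to 4, against 331, 176, 498 and 320.3 CPM in LK libraries 1 to 4.

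Dendritic cell genes were below 0 in 12 of 18 (median -0.65) and summed to 2397, 1264, 1303 and 1355 CPM in HSC libraries 1 to 4, against 2339, 2057, 3013 and 3259 CPM in LK libraries 1 to 4. Irf8, the factor of dendritic cell and monocyte fate, had 671, 207, 255 and 439.7 CPM in HSC libraries 1 to 4, against 710.3, 665, 1059 and 1308 CPM in LK libraries 1 to 4 (log2 fold change -1.25 ± 0.38), where HSC library 1 alone reached the LK range. Itgax, which encodes CD11c, had 51.1, 18.3, 16.1 and 51.4 CPM in HSC libraries 1 to 4, against 42.9, 79.7, 51.9 and 79.1 CPM in LK libraries 1 to 4 (log2 fold change -0.89 ± 0.38). Clec10a, a lectin receptor gene of dendritic cells and macrophages, lay the other way at 24.5, 22.6, 14.5 and 27.4 CPM in HSC libraries 1 to 4, against 10.7, 12.96, 10.9 and 14.8 CPM in LK libraries 1 to 4 (log2 fold change 0.85 ± 0.31). HSC library 1 was the highest or next to the highest HSC library for all 4 of H2-Ab1, Irf8, Itgax and Clec10a, and the cause was not tested.

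Tissue macrophage genes lay at low levels. Of 16 listed genes 8 passed the filter, 7 above 0 (median 1.06), and the list summed to 284, 120.4, 138 and 371 CPM in HSC libraries 1 to 4, against 104, 160.3, 92.7 and 58.6 CPM in LK libraries 1 to 4. Background for the list would bring 90.4 CPM in HSC and 33.2 CPM in LK libraries. Axl, a receptor kinase gene that clears dying cells, had 31.1, 10.0, 15.7 and 49.9 CPM in HSC libraries 1 to 4, against 8.59, 4.51, 7.05 and 3.24 CPM in LK libraries 1 to 4 (log2 fold change 2.18 ± 0.51), with no overlap. C1qb, a complement gene of macrophages, had 13.4, 1.47, 4.29 and 6.28 CPM in HSC libraries 1 to 4, against 1.40, 0.986, 1.12 and 1.35 CPM in LK libraries 1 to 4. HSC libraries 1 and 4 led for Axl and for the list as a whole.

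Among the other lists, cholesterol and fatty acid synthesis genes had 19 of 24 above 0 (median 0.36). Of these, 5 had an unadjusted p under 0.05 (10.2% of all genes in that direction). The median of this list, like those of the megakaryocyte, B cell, and immediate early lists, turned below 0 when the filter against background was replaced by 10 counts in 4 libraries, which moved the median of all genes to -0.49. Adhesion and homing genes had 16 of 22 below 0 (median -0.40). Cd44, the hyaluronan receptor gene, stood at 119, 78.1, 100.1 and 112 CPM in HSC libraries 1 to 4, against 131, 162, 188 and 181 CPM in LK libraries 1 to 4 (log2 fold change -0.69 ± 0.18), without overlap, and Cxcr4, the receptor gene for the marrow chemokine CXCL12, had -0.60 ± 0.23 with overlap. Itga5, the fibronectin receptor integrin gene, lay the other way at 46.1, 47.2, 60.2 and 67.1 CPM in HSC libraries 1 to 4, against 40.7, 35.3, 40.2 and 33.2 CPM in LK libraries 1 to 4, without overlap (log2 fold change 0.56 ± 0.17). Among cytokine receptors, 18 of 27 were below 0 (median -0.12), and Csf2rb2, a beta chain gene of the interleukin-3 receptor of mice, averaged 72.5 ± 29.7 CPM in HSC and 31.6 ± 10.2 CPM in LK libraries (SD, n = 4 each). Sort and surface markers, transcription factors, BCL2 family genes and quiescence genes had medians from -0.11 to 0.01. B cell and lymphoid priming genes had 6 of 10 above 0 (median 0.21), and immediate early and heat shock genes 12 of 19 (median 0.27). T and NK cell, stromal and endothelial, imprinted and plasma cell lists had 4, 4, 2 and 1 members above background.

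**Figure D4:**
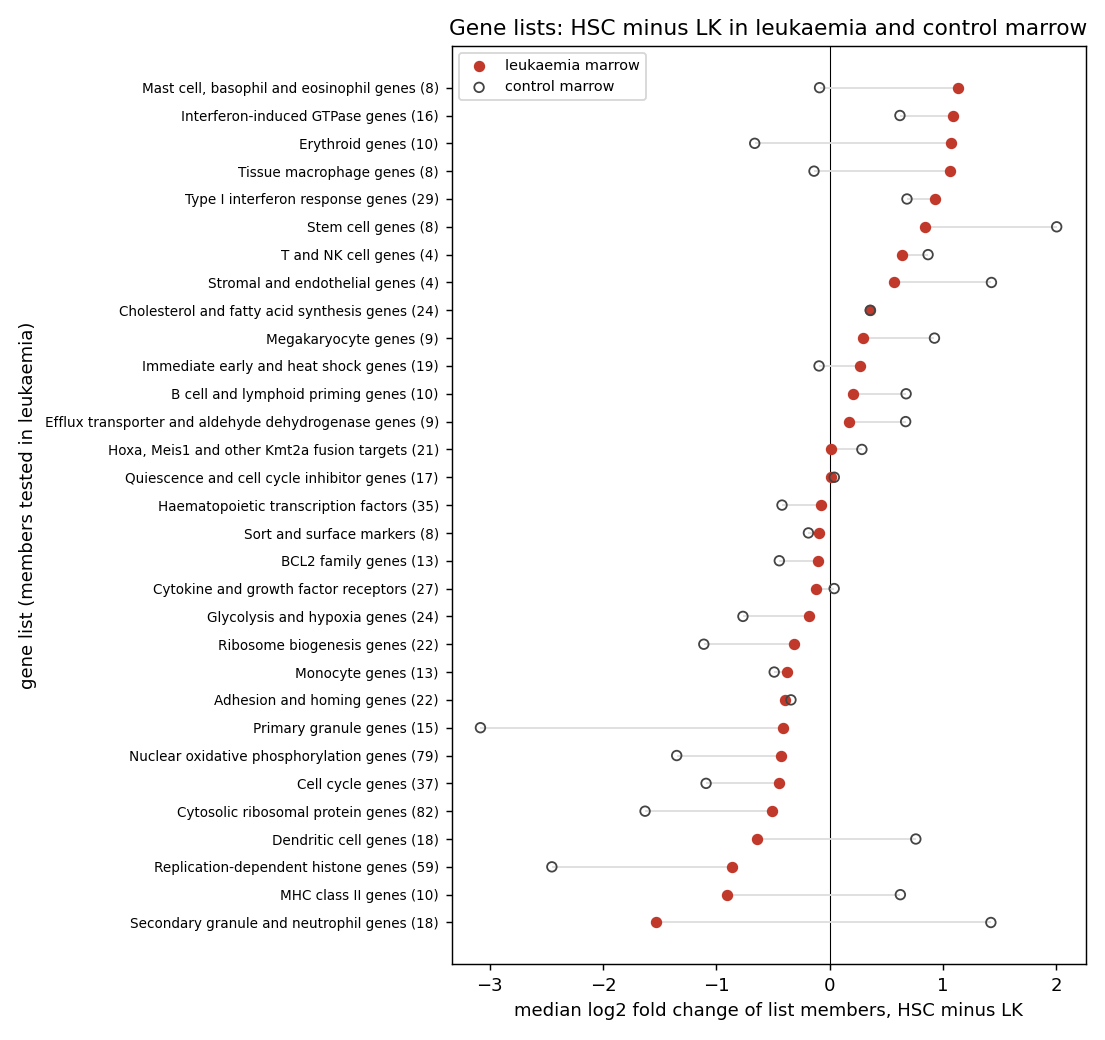
Median log2 fold change of HSC minus LK over the members of each gene list, with filled points for leukaemia marrow and open points for control marrow. The number in brackets is the members tested in leukaemia, which can differ from those tested in control. Ribosomal protein, histone and primary granule medians lay nearer 0 in leukaemia than in control, and mast cell, erythroid, dendritic cell, MHC class II and neutrophil medians were among those on opposite sides of 0.

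Control marrow with the same fusion gave a far larger difference between the gates. There edgeR called 4099 of 11154 genes higher (36.7%) and 3760 lower (33.7%) in HSC than in LK, against 0 in leukaemia marrow by the same test with 4 libraries a gate in each. Control gates came from the same 4 mice, fitted without a mouse term, and leukaemia gates from different mice. These counts also depend on the spread between mice, so they are not like for like. Over the 9979 genes tested in both arms the median size of the log2 fold change was 0.27 in leukaemia and 0.65 in control. Background was 21.6 to 27.7% in control HSC and 6.51 to 12.4% in control LK libraries, so it moved with the gate in both arms. Of the 631 genes whose leukaemic HSC libraries all lay above LK, 292 were tested in control and 272 of these had the same direction (93.2%, against 76.9% of all genes tested in both arms). Of the 788 that all lay below, 779 were tested and 735 had the same direction (94.4%).

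The difference between the arms was tested directly, as an interaction of gate and arm over the marrow libraries of both. edgeR called 2925 of 15272 genes, 2232 with a higher (14.6%) and 693 with a lower (4.54%) HSC minus LK difference in leukaemia than in control. Without leukaemia HSC library 4 the count was 4971. With background subtracted it was 3141. Genes that passed the filter within 1 arm alone also entered this test. Of the 2483 called genes with a fold change in both arms, 2401 had the larger size in control and 436 had opposite signs.

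Myeloid progenitor genes were among them. All 15 primary granule genes fell in control HSC relative to LK (median -3.08, against -0.41 in leukaemia), and all 15 differed between the arms. Over all genes 33.7% were called lower in control, and 14.6% had a higher difference in leukaemia. Clec12a, the gene of smallest p, had a log2 fold change of -0.34 ± 0.17 in leukaemia and -2.84 ± 0.16 in control, an interaction of 2.71 ± 0.26 (edgeR adjusted p = 3.25e-06). It averaged 163 ± 36.3 CPM in HSC and 206 ± 18.5 CPM in LK libraries (SD, n = 4 each) of leukaemia, and 15.9 ± 4.35 CPM in control HSC and 113 ± 6.89 CPM in control LK libraries (SD, n = 4 each). Control HSC stood far below the other 3 groups, on scales set within each table. Plac8 (3.25 ± 0.36), Lgals1, the galectin-1 gene (2.73 ± 0.28), and Atp8b4, a lipid flippase gene (2.69 ± 0.29), had the same form, with Lgals1 at -0.06 ± 0.19 in leukaemia and -2.57 ± 0.17 in control.

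Proliferation and ribosome genes also differed between the arms. Of 37 cell cycle genes 35 were called lower in control (33.7% of all genes were), with a median of -1.09, against -0.45 in leukaemia. Of the 37, 21 differed between the arms, all towards a smaller drop in leukaemia (14.6% of all genes had a higher difference there). For ribosomal proteins 74 of 82 had a higher difference in leukaemia (14.6% of all genes) and 1 a lower one (4.54% of all genes). Their median was -0.51 in leukaemia and -1.63 in control. The counts were 46 of 59 for histones, 58 of 80 for oxidative phosphorylation and 17 of 22 for ribosome biogenesis, all higher (14.6% of all genes). Rps2 averaged 474 ± 74.6 CPM in HSC and 716 ± 79.6 CPM in LK libraries (SD, n = 4 each) of leukaemia, and 192 ± 8.58 CPM in control HSC and 801 ± 80.5 CPM in control LK libraries (SD, n = 4 each).

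Gata1, Zfpm1 and Ms4a2 had opposite signs in the arms, while Irf8 (-1.25 in leukaemia, -1.79 in control) and Meis1 (1.31 in leukaemia, 1.63 in control) had the same sign in both. Gata1 had a log2 fold change of 2.15 ± 0.55 in leukaemia and fell by 0.85 on the log2 scale in control HSC (edgeR adjusted p = 0.00114), an interaction of 3.22 ± 0.51 (adjusted p = 0.000282). Gata1 averaged 14.6 ± 5.74 CPM in HSC and 3.28 ± 1.76 CPM in LK libraries (SD, n = 4 each) of leukaemia, and 26.8 ± 3.83 CPM in control HSC and 48.8 ± 8.32 CPM in control LK libraries (SD, n = 4 each). Leukaemic LK libraries were thus the lowest of the 4 groups for Gata1, on scales set within each table. Zfpm1 (2.53 ± 0.49, adjusted p = 0.00116) and Ms4a2 (3.32 ± 0.79, adjusted p = 0.00516) had the same pair of signs. In the erythroid list 10 of 19 genes had a higher difference in leukaemia (14.6% of all genes) and none a lower one, and of the 19 genes 10 had passed the filter within leukaemia marrow.

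F2r and Eng separated the leukaemic gates more than the control gates. F2r averaged 51.1 ± 39.8 CPM in HSC and 4.67 ± 2.85 CPM in LK libraries (SD, n = 4 each) of leukaemia, and 43.3 ± 6.61 CPM in control HSC and 34.6 ± 4.05 CPM in control LK libraries (SD, n = 4 each), an interaction of 3.34 ± 0.60 (edgeR adjusted p = 0.000699). On scales set within each table, the 2 HSC groups had like means, and leukaemic LK stood apart. Eng had an interaction of 1.94 ± 0.34 (adjusted p = 0.000541). Cd55 did not pass the filter in control marrow, so no fold change within control is given for it. Cathepsin E (Ctse), with 1.08 ± 0.24 in leukaemia and -1.26 ± 0.14 in control, and the septin gene Sept8, with 2.30 ± 0.58 in leukaemia and -1.36 ± 0.12 in control, had opposite signs in the arms. Sept8 had 27.6, 17.3, 18.4 and 23.6 CPM in leukaemia HSC libraries 1 to 4. Leukaemia LK libraries 1 to 4 had 11.9, 1.41, 2.57 and 1.48 CPM. Background would bring 8.41 CPM in HSC and 3.09 CPM in LK libraries on average, with the most per kb in HSC library 4. With background subtracted the leukaemia log2 fold change of Sept8 was 2.72 ± 0.94 (edgeR unadjusted p = 0.0125).

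For other genes the difference was lower in leukaemia than in control. Itgax rose in control HSC (2.16 ± 0.14) and had -0.89 ± 0.38 in leukaemia, an interaction of -2.85 ± 0.43 (edgeR adjusted p = 0.000202). Flt3 had -1.93 ± 0.47 in leukaemia and 0.30 ± 0.25 in control, an interaction of -2.01 ± 0.59 (adjusted p = 0.019). It averaged 81.5 ± 43.6 CPM in HSC and 312 ± 139 CPM in LK libraries (SD, n = 4 each) of leukaemia, and 46.4 ± 3.77 CPM in control HSC and 37.7 ± 8.61 CPM in control LK libraries (SD, n = 4 each), so that leukaemic LK libraries carried the most Flt3. Dendritic cell genes had 6 of 19 and MHC class II genes 4 of 10 with a lower difference in leukaemia (4.54% of all genes), none higher. Within control marrow 8 genes of each of these lists passed the filter, so the others entered through their leukaemia levels.

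Ly6a and some interferon genes had like values in both arms. Ly6a had 3.09 ± 0.53 in leukaemia and 2.93 ± 0.26 in control, an interaction of 0.39 ± 0.60 (edgeR adjusted p = 0.698). Tgtp1 had 1.82 ± 0.36 in leukaemia and 1.85 ± 0.14 in control, and Parp14 1.02 ± 0.18 in leukaemia and 1.04 ± 0.13 in control. Gvin1 had 1.07 ± 0.30 in leukaemia and 1.64 ± 0.18 in control. Gbp3, another guanylate-binding protein gene, had 0.10 ± 0.25 in leukaemia and -0.58 ± 0.15 in control, with an interaction of 0.90 ± 0.31 (edgeR adjusted p = 0.0427). Mecom had 1.47 ± 0.34 in leukaemia and 2.74 ± 0.16 in control, and its interaction of -1.05 ± 0.39 missed the threshold (adjusted p = 0.0612). Of 29 interferon response genes 2 and of 14 stem cell genes 2 differed between the arms (19.2% of all genes did). Within control marrow 12 of the interferon response genes, 9 GTPase genes and 10 stem cell genes passed the filter. A p over the threshold does not show that the arms were equal.

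**Figure D5:**
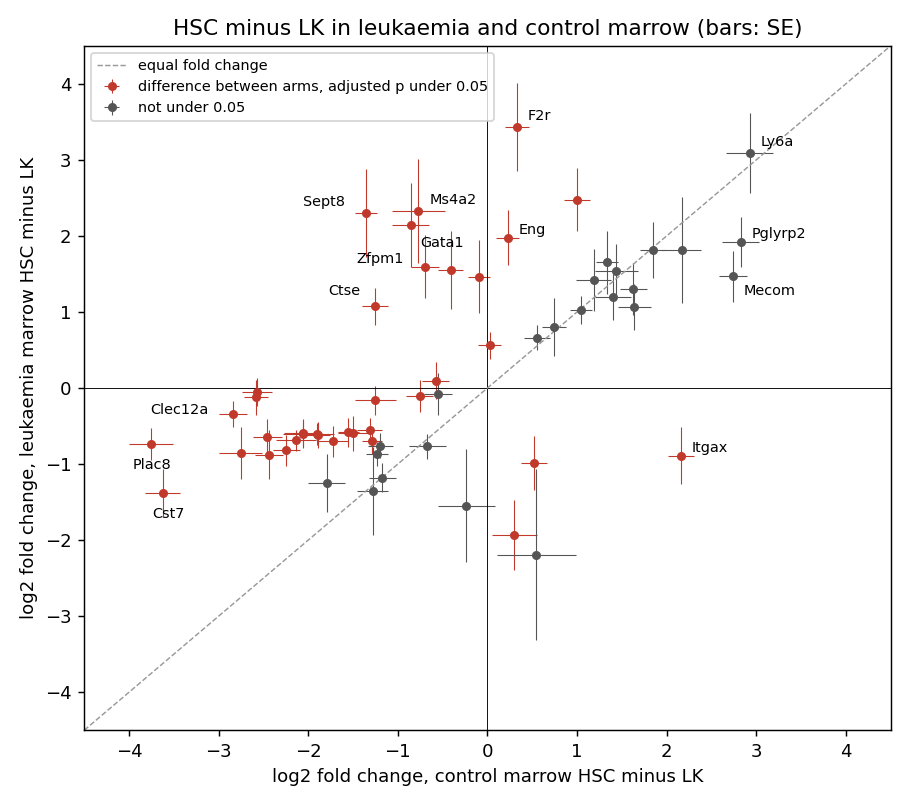
Log2 fold change of HSC minus LK in leukaemia marrow (vertical axis) against that in control marrow (horizontal axis) for the named genes tested in both arms, with bars of 1 SE. Red points differ between the arms at an adjusted p under 0.05 by the interaction test, and the dashed line marks equal fold changes. Of the primary granule list, Plac8 (-0.74 in leukaemia, -3.76 in control), Cst7 (-1.38 in leukaemia, -3.63 in control) and Clec12a (-0.34 in leukaemia, -2.84 in control) lie far left and less far below 0. Gata1, Zfpm1, Ms4a2, Ctse and Sept8 lie above 0 in leukaemia and below 0 in control.

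In the CNS of the same mice, no gene's HSC minus LK difference was shown to differ from that in marrow. The interaction of gate and site called 0 of 15852 genes in edgeR and 0 in DESeq2, with 342 (2.16%) at an unadjusted edgeR p under 0.05. Within CNS itself, edgeR called 229 of 14316 genes higher (1.6%) and 323 lower (2.26%) in HSC than in LK. Ly6a had a log2 fold change of 3.09 ± 0.53 in marrow and 3.31 ± 0.43 in CNS, Mecom 1.47 ± 0.34 in marrow and 1.33 ± 0.33 in CNS, and Gbp2 1.89 ± 0.31 in marrow and 1.54 ± 0.27 in CNS. Cst7 had -1.38 ± 0.31 in marrow and -1.88 ± 0.44 in CNS, and Flt3 -1.93 ± 0.47 in marrow and -1.86 ± 0.42 in CNS. All 5 genes, a selection, passed the edgeR threshold in CNS (adjusted p from 0.0239 for Ly6a to 0.0485 for Mecom). Among the marrow genes of smallest p, Gbp2, Pgls and Hes6 passed in CNS, and Irgm2, Rec8, F2r, Auts2, Dtx4, Cox5b and Arpc4 did not. Irgm2 had 1.50 ± 0.21 in marrow and 0.74 ± 0.21 in CNS. F2r had 3.43 ± 0.58 in marrow and 1.39 ± 0.49 in CNS. Pgls had -0.86 ± 0.16 in marrow and -1.19 ± 0.26 in CNS. The genes of smallest interaction p, with marrow minus CNS differences, were the erythroid regulator Klf1 (3.07 ± 0.84), Sept8 (2.91 ± 0.88), the sialic acid receptor gene Cd33 (-1.61 ± 0.54), Pigyl (-1.36 ± 0.46) and the integrin gene Itgb5 (-3.16 ± 1.09), each with an edgeR adjusted p of 0.9999. Klf1 and Itgb5 had not passed the filter within marrow. Gata1 had 2.15 ± 0.55 in marrow and 0.22 ± 0.59 in CNS, and Ms4a2 2.33 ± 0.68 in marrow and 0.57 ± 0.67 in CNS. Tissue macrophage genes had a median of 1.06 over the 8 members tested in marrow and of 3.51 over the 10 tested in CNS, where 3 of the 10 were called higher in HSC.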

How the data were processed

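The authors deposited 2 tables of whole-number counts per gene, 1 for leukaemia and 1 for control libraries, with 55414 identifiers each. Their names call them normalised, but library totals differ, so the values were treated as counts not yet scaled. DESeq2 and GRCm39 are named in the submitters' processing notes, and neither an aligner nor a counter nor the strand handling is stated (not given in the sources used here). Overlapping, antisense and near-identical genes are therefore uncertain. Symbols and exon lengths were matched for 52133 identifiers from a GRCm38 annotation, and 3281 without either could not be tested. Background per kb was the level of 1516 sensory receptor genes. Genes entered a test with counts above 10 plus 3 times their expected background in 4 or more libraries, which left 13490 genes. The 12 leukaemia BM libraries (HSC, LMPP, LK), 1 per mouse, were scaled by TMM over these genes and fitted with edgeR 4.0.16 (glmQLFit, glmQLFTest, R 4.3.3), with LMPP adding only to the estimate of the spread, no mouse term, and Benjamini-Hochberg adjustment at 0.05. Interactions were fitted the same way over all 24 leukaemia libraries, or over the 24 BM libraries of both tables. DESeq2 1.42.0 and limma 3.58.1 were alternatives, and the fits were tested on simulated data. Without calls in a direction the 5 genes of smallest p were to be named, with the 3 of smallest p in each of 32 lists (824 of 825 listed genes matched), 7 sorting markers and the 5 of smallest p per interaction. The report names a selection of these. Eng, Cd55, Gbp5, Pglyrp2, Parp14, Gbp3 and the GTPase family were added after their values were seen. Members and lists were chosen with earlier results of these data known. Depth was 10219026 to 23043885 counts per HSC or LK library, and PCR copies without molecular identifiers are not independent molecules.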

Additional observations from a re-analysis of the deposited data

Results flagged for a closer look

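A library stood apart from the other 3 of its gate in 15 of 212 sets of 4 values, by the gap between the extreme library and its nearest neighbour over the whole range (Dixon's test at 95%). Chance alone gives about 1 in 20. HSC library 4 supplied 7 of the 15. Its background was 26.5% (8.98 to 9.13% in the others), its ribosomal protein sum 17507 CPM (30340 to 31855 CPM in the others) and its ribosome biogenesis sum 1744 CPM (3211 to 3368 CPM). Its imprinted gene sum was 553 CPM (152 to 182 CPM) and its stromal and endothelial sum 616 CPM (336 to 380 CPM). Background would bring 184 CPM of the imprinted and 152 CPM of the stromal sum in HSC libraries on average. It was highest per kb in this library, and whether these 2 sums differ beyond background was not tested. In HSC library 4 Cst7 stood at 33.6 CPM and Wfdc21 at 11.1 CPM, the highest of the HSC libraries.

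HSC library 1 had the highest H2-Ab1 level, 303 CPM, the highest MHC class II sum, 1477 CPM, and the highest dendritic cell sum, 2397 CPM. It also had the lowest Auts2 level, 39.4 CPM, before background was subtracted. LK library 1 was highest for F2r, at 8.92 CPM, and for Sept8, at 11.9 CPM, and lowest for the cell cycle sum, at 5399 CPM. LK library 3 had the highest sum of glycolysis and hypoxia genes, 4518 CPM.

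Of 70 genes checked, 38 had an HSC minus LK difference that differed between leukaemia and control marrow in the edgeR interaction test, against 19.2% of all genes. Plac8, Clec12a, Lgals1, Atp8b4 and Ctse had been named for their small p in this same test, so their passing was fixed in advance. Other genes had been named for small p between the leukaemia gates, a difference that is part of this interaction, or after their values were seen. The count of 38 of 70 and the share of all genes are therefore not like for like. Values are log2 differences, leukaemia minus control. Among myeloid genes these were 3.25 for Plac8, 2.71 for Clec12a and 2.44 for Cst7, with -4.60 for Chil3, which had not passed the filter in control marrow. Among genes of very small interaction p they were 2.73 for Lgals1, 2.69 for Atp8b4 and 2.54 for Ctse. Among genes of the stem cell, erythroid, mast cell and transcription factor lists they were 3.22 for Gata1, 2.53 for Zfpm1, 1.79 for Gata2, 3.32 for Ms4a2, 2.12 for Mt1 and 2.05 for Tfrc. For surface proteins they were 3.34 for F2r, 1.94 for Eng, 1.31 for Cd48, 0.87 for Cd34, 0.81 for Cd44, 1.11 for Cxcr4, 0.75 for Itga5 and -2.01 for Flt3. Cd55 gave 2.02 but had not passed the filter in control marrow. Gbp3, of the interferon-induced GTPases, gave 0.90. Antigen-presenting cell genes gave -2.85 for Itgax and -1.30 for H2-DMa, and Apoe, a lipid carrier gene of macrophages, gave 2.20.

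Genes of division gave 1.63 for Rrm2, 1.49 for Mcm5 and 1.19 for Rrm1. Ribosomal protein genes gave 1.68 for Rpl29 and 1.69 for Rps2, and genes of respiration 1.69 for Cox5b and 1.52 for Atp5g3. Glycolytic enzyme genes gave 1.24 for Gpi1, 0.98 for Tpi1 and 1.77 for Pgam1. Rec8 gave 1.71 and Sept8 3.86.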

How the results depend on the processing

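The count of called genes between HSC and LK, 0 by edgeR over 12 libraries, was 0 with background subtracted, with limma-trend and with the 8 HSC and LK libraries alone. It was 1 with DESeq2 size factors, 3 with a filter of at least 10 counts in 4 libraries, 70 with no filter, 6 at 5 times background and 5 with all 24 leukaemia libraries. limma-voom with sample weights called 117 and DESeq2 399. Chosen after seeing the data, DESeq2 called 132 with background subtracted, 368 without HSC library 4 and 46 without LK library 4, and edgeR without both libraries called 0. Of the 399 genes, 224 were called in the same direction without HSC library 4, 45 without LK library 4 and 125 with background subtracted. Leaving out 1 library gave 0 to 14 edgeR calls. The filters on counts moved the median fold change of all genes to -0.49 and -0.51, from 0.02 with the filter against background. The marrow and CNS interaction stayed at 0 in every setting run, leave-one-out range 0 to 0, and the leukaemia and control interaction gave 2109 to 4971 calls with 1 library left out, 3415 with DESeq2 and 3141 with background subtracted, chosen after seeing the data. Of 33 list medians, 20 kept their sign in all 23 settings. HSC and LK libraries of the same number came from different mice, whose IDs begin with the same number, and what that number marks is not given in the labels. Deviations of same-numbered libraries correlated between -0.53 and -0.14, 0 of 8 matched best with their own number, and the fit with the replicate block called 0 genes, against 0 without it. With the mouse as a replicate block the site interaction called 0, and the arm interaction with control mice as a block called 2458. Among single genes and list medians, 3135 values kept their side, 227 passed the threshold under an alternative, 82 moved and none changed the sign of a call. The causes of these movements were not tested. With 4 libraries a gate, differences smaller than the spread between mice were not detectable at this depth.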
